A study of Mus musculus with 53 samples.

Results

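The 39 genes described here are known markers and workers of the 2 main cell types that line the small intestine, the absorptive enterocyte and the mucus-making goblet cell. They were taken by symbol from the annotation of the arrays, 39 of the 18194 genes named there, and each is represented by its brightest probe set. The list was chosen with earlier results of these data known, so counts among these genes describe them and are not independent evidence. By role they comprise 12 brush border genes, 4 transporters, 6 genes of lipid handling, 5 transcriptional regulators, 3 genes of guanylin signalling, 5 goblet cell and mucin genes and 4 genes of the epithelial surface and adhesion. The study profiled mouse epithelial tissues, and these genes were read in its 26 arrays of the older 3' type. The input of these arrays was total RNA of whole tissue. At embryonic day 18.5 (E18.5) there were 3 arrays each of proximal small intestine, stomach, esophagus, dorsal skin and bladder. Dorsal skin was also sampled at E14.5 and E16.5 with 3 arrays each, and bladder at E14.5 with 2 arrays and at E16.5 with 3. All mice were wild-type CB6 except those of the E18.5 bladders, which were Get1 +/-, heterozygous for a grainyhead-like transcription factor gene now named Grhl3. Per the series text, the laboratory had made the arrays of bladder and of E18.5 skin in previous work. The labels do not say whether the arrays of a group are separate animals, so p-values measure the spread between arrays, which may be technical.

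An enterocyte carries a brush border, a carpet of microvilli held up by actin bundles and covered with enzymes that finish the digestion of sugars and peptides. Transporters in this membrane take up the products, and inside the cell fatty acids are bound, rebuilt into fat and loaded onto apolipoproteins for export. The homeobox factors of the caudal family and the nuclear receptors of the HNF4 family direct this programme, and in the fetal mouse it is switched on as the villi form, before birth and the first milk. Goblet cells stand between the enterocytes and secrete gel-forming mucin with small trefoil peptides and mucus-binding proteins.

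Levels are given as log2(intensity + 16) after quantile normalization, a scale on which 4 is an intensity of 0, and a difference of 1 is a 2-fold change for bright genes and understates the change of dim ones. A gene was called when its Benjamini-Hochberg adjusted p in limma, over all 18194 genes, was under 0.05 and the difference at least 2-fold. A microarray gives no read depth, so the number of arrays limits the precision. The arrays fell into 2 sets by the ratio of 3' to 5' signal of the Gapdh control probe sets. It was 0.96 to 1.24 in the 9 arrays of small intestine, E16.5 skin and E18.5 skin, and 2.2 to 13.4 in the other 17. Small intestine against E18.5 skin, stomach against esophagus and the bladder ages are compared within a set. The ratio was uneven within the 17 arrays. It was 2.8, 3.05 and 8.11 in stomach WT1, WT2 and WT4, and 2.58, 3.07 and 5.26 in esophagus WT1, WT2 and WT4. Small intestine against stomach, esophagus or bladder, and E18.5 against E14.5 skin, are compared across the sets, and there the set and the tissue or age cannot be told apart. The mean of stomach, esophagus, bladder and skin at E18.5 takes skin from the set of small intestine and the rest from the other set. In whole tissue, fewer cells of a type and less RNA per cell cannot be told apart either.

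The small intestine array WT4 went against its label in the markers of other tissues. Its correlation with the other small intestine arrays, WT1_3 and WT3, was 0.871 to 0.883 across genes, against 0.982 between those 2. With stomach it was 0.774 to 0.799 and with E18.5 skin 0.853 to 0.86, both below its correlation with small intestine. The gastric tight junction gene Cldn18 had levels of 4.58 and 4.48 in WT1_3 and WT3, 13.27 in WT4, and 13.96 to 14.13 in stomach. The basal keratin gene Krt5 stood at 4.14, 4.45 and 12.53 in WT1_3, WT3 and WT4. The stomach marker list of 14 measured genes summed to 1700, 3060 and 37700 intensity units in these 3 arrays, and to 28500 to 40500 in stomach. For that reason WT4 is shown apart, and the counts and differences of small intestine are given with and without it. The title WT1_3 does not say whether that array is a pool or shares an animal with WT3, and if it does, the values without WT4 rest on arrays that are not independent. A pair of E14.5 skin arrays stands apart too: the titles of replicates 1 and 2 carry the same identifier, so both may come from 1 sample. A list of 12 measured hepatocyte genes summed to 36700 and 35200 units in those 2 arrays and to 200 units in replicate 3.

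Markers of the other tissues were looked at in the same way. The stratified epithelium list, 9 measured genes, summed to 20100 to 33000 units in esophagus and 24100 to 26200 in E18.5 skin. The urothelial list of 7 genes was at 5910 to 7780 in E18.5 bladder and 3900 to 5910 in esophagus. Single genes of that list differed. In esophagus and E18.5 bladder Upk1b had levels of 11.4 to 12.11 and 11.45 to 12.09, and Foxa1 9.62 to 10.19 and 8.66 to 9.43. Upk1a had 4.11 to 4.67 and 8.81 to 9.34, and Upk3a 5.82 to 6.8 and 9.76 to 9.98. Stomach held 15000 to 18000 units of the stratified list, and the mouse stomach has a forestomach with a stratified lining. In small intestine WT1_3 and WT3 the stratified list summed to 185 and 459 units. Pancreatic acinar genes were present there too, with summed levels of 36900 in WT1_3, 8940 in WT3 and 6070 in WT4 over 11 measured genes, against 2830 to 5850 in stomach and 323 to 393 in E18.5 skin. Their part in the results for the 39 genes was not tested.

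At E18.5 nearly all of the 39 genes were higher in small intestine than in the mean of stomach, esophagus, bladder and skin. With all arrays 36 of 39 were called higher and none lower, where 16.3% of all genes were called higher and 20.3% lower. Without WT4 the same 36 were called, where 17.5% of all genes were called higher and 22.9% lower. The median difference of the 39 was 5.09 with all arrays and 6.37 without WT4, and over all genes it was -0.15 and -0.17. The exceptions were the peptidase gene Dpp4, the trehalase gene Treh and the peptide transporter gene Slc15a1. In 34 of the 39 genes both WT1_3 and WT3 lay above each of the 23 arrays of the other tissues and ages, which held for 10.7% of all genes. The 5 others were Dpp4, Treh, Slc15a1, Hnf4a and Agr2.

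**Figure D1:**
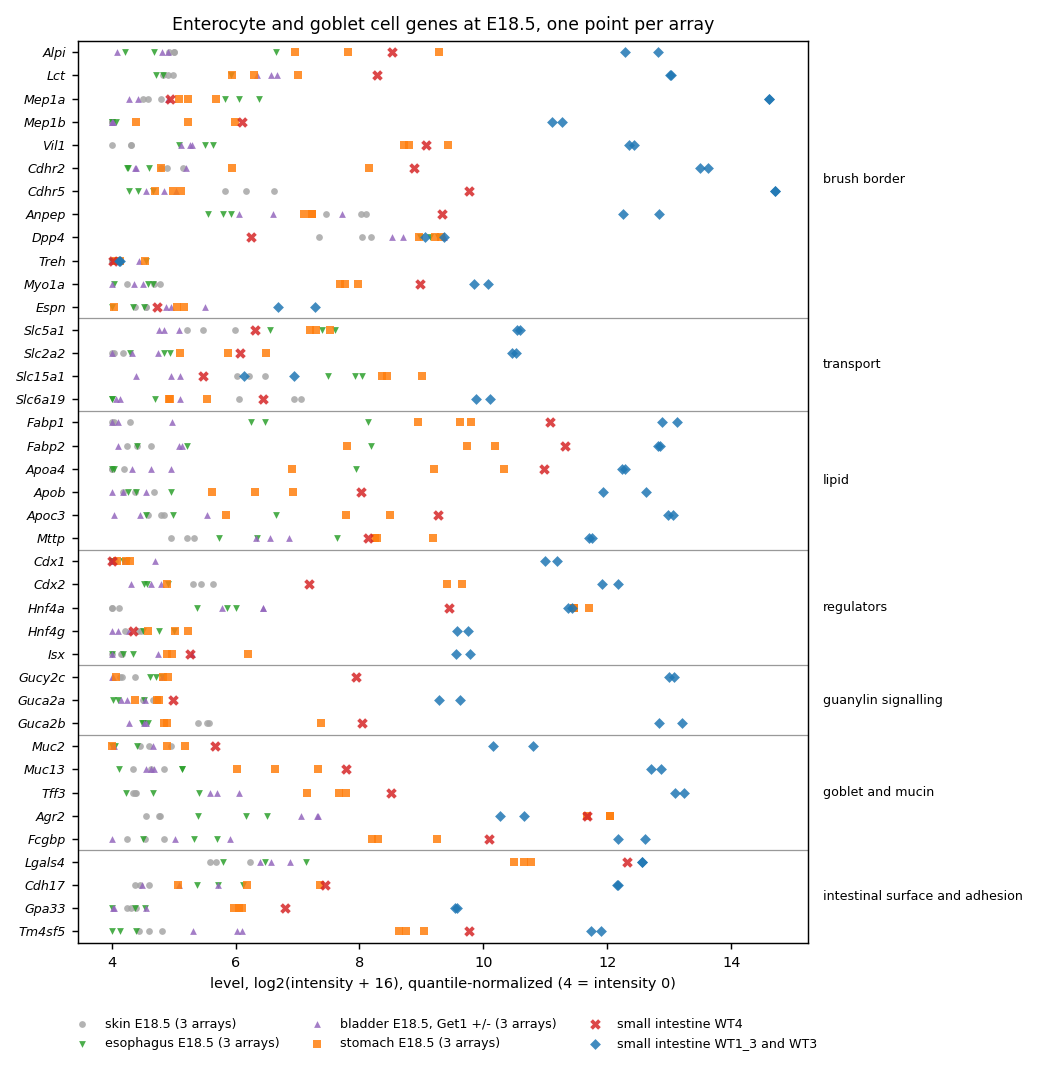
Level of each of the 39 genes (rows, grouped by role) in the E18.5 arrays, as log2(intensity + 16) on the horizontal axis, with 1 point per array. Blue diamonds (small intestine WT1_3 and WT3) lie to the right of all other points in most rows, the red cross (small intestine WT4) mostly lies between them and the other tissues or among the latter, and the orange squares (stomach) lie level with the blue diamonds or to their right for Hnf4a, Agr2, Dpp4 and Slc15a1.

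Against the single tissues the counts were alike. In small intestine against stomach 32 genes were called higher and 2 lower, where 20% of all genes were called higher and 25.6% lower. Without WT4 these were 34 and 2, with Apoa4 and Cdx2 added, where 21% of all genes were called higher and 27.2% lower. Against esophagus 36 were called higher and 1 lower with all arrays, where 23.1% of all genes were called higher and 25.7% lower. The same genes were called without WT4, where those shares were 23.6% and 27.2%. Against bladder 37 were called higher, where 19.3% of all genes were, and the same 37 without WT4, where 20.1% were. Against E18.5 skin, the comparison within 1 set of arrays, 36 were called higher with all arrays, where 10.2% of all genes were, and 37 without WT4, where 11.4% were. The gene added there was Dpp4. These comparisons share the 3 small intestine arrays.

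**Figure D2:**
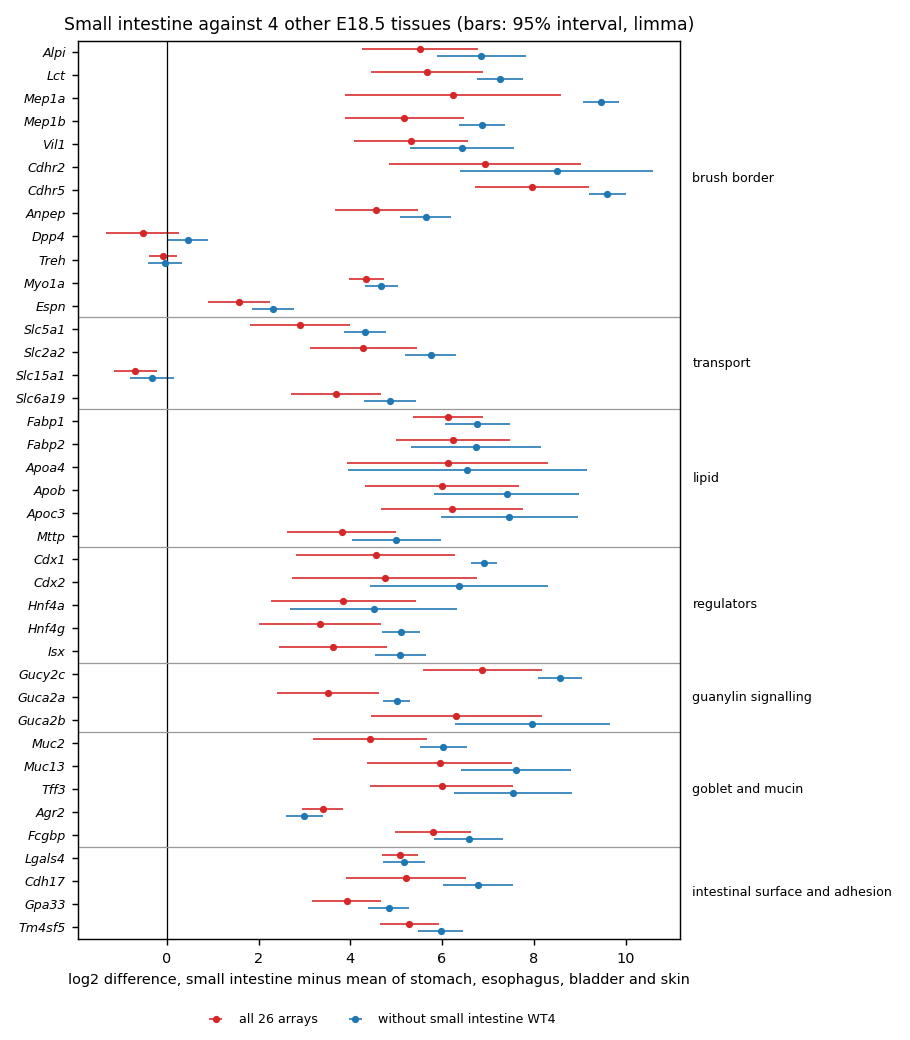
Log2 difference of each gene between small intestine and the mean of stomach, esophagus, bladder and skin at E18.5, with 95% intervals from limma, with all 26 arrays (red) and without small intestine WT4 (blue). The intervals of Dpp4 and Treh with all arrays span 0, and those of the other genes except Slc15a1 lie above it. Leaving out WT4 moves most points to the right, and Agr2 to the left.

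Before the values by role, the promoters of some of these genes are shown, since most of the genes were high together in 1 tissue. RefSeq windows of GRCm38.p6, from 250 bases before to 50 after the start site, were given for 32 of the 39 genes. Letters of 4 factor motifs were searched on both strands, with N for any base. They were TTTATNG for CDX factors, CAAAGTCCA for the HNF4 family, GTTAATNAT for the HNF1 family and AGATAAG for zinc finger factors of the GATA family. The TATA box was searched as TATAAA on the sense strand. The CDX letters were found in 8 of the 32 genes (25%) and in 12.5% of all 27025 genes with a window. The HNF4 letters were found in 3 of 32 (9.38%, against 0.555% of all), in Alpi, Muc13 and Treh. Some genes with a match did not share the high level in small intestine. Treh was at or near the floor in all arrays. Of the 8 genes with CDX letters, Dpp4 was not called against the 4 tissues and Agr2 was lower than in stomach. The HNF1 letters were found in 1 (3.12%, against 0.94%), the GATA letters in 1 (3.12%, against 3.5%) and the TATA box in 4 (12.5%, against 9.77%). Counted from the start site, the TATAAA letters began at -30 in Fabp1, -60 in Apob, -174 in Muc2 and -227 in Dpp4. They were counted wherever they lay in the window. In Apob and Dpp4 they overlap the CDX letters. A match is only a match of letters, and a window without one says nothing of the factor. The 6 sequences below are the 250 bases before the start site, 5′ to 3′ on the strand of the gene, with the CDX, HNF4, HNF1 and GATA letters in capitals, on either strand. Alpi carries CDX and HNF4 letters close together, Fabp1 has CDX letters at 3 places and Fabp2 at 1, Muc13 has HNF4 letters, Cdhr2 HNF1 letters and Guca2a GATA letters at 2 places.
Alpi, chr1:87101607-87101856, minus strand: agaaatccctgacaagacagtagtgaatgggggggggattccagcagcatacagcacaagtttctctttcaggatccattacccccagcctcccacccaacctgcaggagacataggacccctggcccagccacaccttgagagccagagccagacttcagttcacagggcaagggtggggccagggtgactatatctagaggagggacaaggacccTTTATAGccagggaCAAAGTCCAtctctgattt
Fabp1, chr6:71199629-71199878, plus strand: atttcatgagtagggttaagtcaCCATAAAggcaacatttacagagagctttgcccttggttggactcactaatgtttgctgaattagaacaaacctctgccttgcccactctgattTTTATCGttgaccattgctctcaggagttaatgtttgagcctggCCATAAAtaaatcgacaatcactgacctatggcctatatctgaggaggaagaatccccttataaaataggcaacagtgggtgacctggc
Fabp2, chr3:122894822-122895071, plus strand: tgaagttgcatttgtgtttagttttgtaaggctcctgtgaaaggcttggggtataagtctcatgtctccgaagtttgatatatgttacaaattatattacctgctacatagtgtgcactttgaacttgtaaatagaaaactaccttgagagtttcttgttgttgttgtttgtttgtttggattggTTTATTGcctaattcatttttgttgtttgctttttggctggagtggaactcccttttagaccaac
Muc13, chr16:33794239-33794488, plus strand: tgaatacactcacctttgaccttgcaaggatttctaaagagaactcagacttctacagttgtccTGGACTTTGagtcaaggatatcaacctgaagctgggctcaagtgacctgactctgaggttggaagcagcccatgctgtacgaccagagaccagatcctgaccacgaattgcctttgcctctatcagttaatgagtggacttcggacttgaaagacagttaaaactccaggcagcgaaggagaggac
Cdhr2, chr13:54701213-54701462, plus strand: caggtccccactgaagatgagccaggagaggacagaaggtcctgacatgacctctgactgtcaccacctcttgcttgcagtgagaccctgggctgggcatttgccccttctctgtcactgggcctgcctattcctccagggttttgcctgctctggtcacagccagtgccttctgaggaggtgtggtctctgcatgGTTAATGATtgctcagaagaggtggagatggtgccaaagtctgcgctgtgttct
Guca2a, chr4:119637482-119637731, plus strand: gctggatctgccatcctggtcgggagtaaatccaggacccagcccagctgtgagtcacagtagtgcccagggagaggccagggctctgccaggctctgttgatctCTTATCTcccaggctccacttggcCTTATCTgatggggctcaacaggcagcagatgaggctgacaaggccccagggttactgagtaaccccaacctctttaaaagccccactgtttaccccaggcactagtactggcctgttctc

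Of the 12 brush border genes 10 were called higher in small intestine than in the other 4 tissues, with and without WT4. Mep1a and Mep1b encode the subunits of meprin, a metalloprotease of the microvillar surface. Mep1a had levels of 14.61 in both WT1_3 and WT3 and 4.95 in WT4, while stomach had 5.23, 5.09 and 5.68, and E18.5 skin 4.5 to 4.79. Before quantile normalization its intensities in WT1_3 and WT3 were 45774.73 and 58877.71, so the equal levels came with the normalization. The difference from the mean of the 4 tissues was 6.24 (SE 1.13, adjusted p = 5.46e-05) with all arrays and 9.46 (SE 0.185, adjusted p = 4.3e-19) without WT4. WT1_3 and WT3 stood far above every other array and WT4 within the range of the other tissues. Mep1b stood at 11.1, 11.27 and 6.11 in the 3 small intestine arrays, at 5.24, 4.4 and 5.99 in stomach, and at an intensity of 0 in all 3 E18.5 skin arrays.

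Cdhr5 and Cdhr2, cadherins that tie the tips of neighbouring microvilli to each other, were also among the largest differences. Cdhr5 had 14.71 in both WT1_3 and WT3, 9.76 in WT4, 4.7 to 5.12 in stomach and 5.83 to 6.62 in E18.5 skin. Before normalization Cdhr5 had unequal intensities in WT1_3 and WT3, 52336.41 and 65690.46. Its difference was 7.96 (SE 0.598, adjusted p = 2.18e-10) with all arrays and 9.6 (SE 0.195) without WT4. Here WT4 too lay above all arrays of the other tissues. Cdhr2 had 13.5, 13.63 and 8.88 in the small intestine arrays, and 8.16, 4.8 and 5.94 in stomach WT1, WT2 and WT4, so stomach WT1 stood above its group.

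The enzymes of the membrane followed. Lct, lactase, the enzyme that splits milk sugar, had 13.03, 13.01 and 8.28 in the small intestine arrays and 5.95 to 7 in stomach, a difference from the 4 tissues of 5.68 (SE 0.586) and 7.26 (SE 0.237) without WT4. Alpi, intestinal alkaline phosphatase, had 12.29, 12.81 and 8.53, and stomach had 7.82, 6.96 and 9.29. Stomach WT4 therefore lay above small intestine WT4. Anpep, aminopeptidase N, had 12.83, 12.26 and 9.33, with 7.1 to 7.23 in stomach and 7.46 to 8.11 in E18.5 skin.

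The actin-binding genes were higher as well, by smaller amounts for Espn. Vil1, villin, the bundler and severer of microvillar actin, had 12.43, 12.35 and 9.07, and 8.72 to 9.43 in stomach. Myo1a, the myosin that links the actin core to the membrane, had 10.07, 9.85 and 8.97, so WT4 was close to the others here, with 7.69 to 7.98 in stomach and 4.25 to 4.78 in E18.5 skin. Espn, the actin bundler espin, had 6.68, 7.28 and 4.74, a difference of 1.57 (SE 0.32) from the 4 tissues, or 2.31 (SE 0.223) without WT4.

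Dpp4 and Treh did not share the pattern. Dpp4, a dipeptidyl peptidase found on many cells, had 9.36, 9.06 and 6.25 in small intestine. It had 8.96 to 9.32 in stomach, 8.98 to 9.26 in esophagus, 8.52 to 9.37 in E18.5 bladder and 9.95 to 10.18 in E14.5 skin. Its difference from the 4 tissues was -0.53 (95% interval -1.33 to 0.27) with all arrays and 0.46 (0.02 to 0.89) without WT4. Treh was between 4 and 4.63 in all 26 arrays, at or near the floor of the scale, and its difference was -0.08 (adjusted p = 0.655) with all arrays and -0.04 (adjusted p = 0.84) without WT4.

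Of the 4 transporters 3 were called higher in small intestine. Slc5a1, the sodium-dependent glucose carrier of the brush border, had 10.59, 10.54 and 6.32 in WT1_3, WT3 and WT4, and stomach (7.2 to 7.53) and esophagus (6.56 to 7.6) lay above WT4. Slc2a2, the glucose carrier of the basal membrane, had 10.46, 10.52 and 6.07. Slc6a19, a carrier of neutral amino acids, had 10.1, 9.88 and 6.44. Its closest other group was skin, with 7.45 to 7.7 at E16.5 and 6.06 to 7.06 at E18.5.

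Slc15a1, the carrier of small peptides, went the other way against 2 tissues. It had 6.95, 6.14 and 5.47 in small intestine, 8.37, 8.44 and 9.01 in stomach and 7.5 to 8.04 in esophagus. The small intestine arrays lay below all of stomach and esophagus. The difference was -2.42 (SE 0.288, adjusted p = 2.33e-07) against stomach and -1.64 (SE 0.288, adjusted p = 3.41e-05) against esophagus, and without WT4 -2.06 and -1.28, both called lower. Against bladder it was called higher, by 1.36 (SE 0.288), or 1.72 without WT4. Against E18.5 skin it was not called (-0.05, 95% interval -0.65 to 0.55, and 0.31, -0.26 to 0.88, without WT4). The gene has 1 probe set on the array, and the 2 tissues above it belong to the other set of arrays.

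All 6 lipid genes were called higher in small intestine than in the 4 tissues, and in each the stomach mean lay between small intestine and the other 3 tissues. Fabp1 and Fabp2 encode the fatty acid binding proteins of the enterocyte. Fabp1 had 13.12, 12.88 and 11.07 in the small intestine arrays, 8.95 to 9.8 in stomach and 4 to 4.29 in E18.5 skin, a difference from the 4 tissues of 6.13 (SE 0.365, adjusted p = 5.75e-12) and 6.77 (SE 0.344) without WT4. Fabp2 had 12.81, 12.85 and 11.32, and 9.73, 7.8 and 10.18 in stomach WT1, WT2 and WT4. For both genes all 3 small intestine arrays, WT4 included, lay above all stomach arrays.

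The apolipoprotein genes were uneven in WT4. Apoa4, a component of chylomicrons, had 12.24, 12.28 and 10.98, and stomach had 9.21, 6.91 and 10.33. Against stomach it was called only without WT4 (3.44, SE 1.49, adjusted p = 0.0469), and with all arrays the difference was 3.02 (adjusted p = 0.0518). Apob, the structural protein of chylomicrons, had 11.93, 12.63 and 8.02, and Apoc3, an inhibitor of lipoprotein clearance, 12.98, 13.06 and 9.27. Mttp, the transfer protein that loads lipid onto ApoB, had 11.75, 11.7 and 8.14, against 8.25 to 9.18 in stomach, where WT4 again lay below the stomach arrays. Apoa4 and Apob also had high levels in E14.5 skin, described further on.

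All 5 regulators were called higher than in the mean of the 4 tissues. Cdx1, a caudal-type homeobox factor, had 11 and 11.18 in WT1_3 and WT3 and 4 in WT4, the floor of the scale, and lay between 4 and 4.7 in all other arrays. Its difference was 4.56 (SE 0.832, adjusted p = 5.79e-05) with all arrays and 6.92 (SE 0.135, adjusted p = 4.3e-19) without WT4. Cdx2, the factor that sets intestinal identity in the gut tube, had 12.18, 11.91 and 7.18. In stomach it had 9.66, 4.9 and 9.42 in WT1, WT2 and WT4, so 2 stomach arrays lay above small intestine WT4 and the third was low. Against stomach Cdx2 was called only without WT4 (4.05, SE 1.12, adjusted p = 0.0031), and with all arrays it was 2.43 (adjusted p = 0.0845). Cdx1 was not raised in those stomach arrays, at 4.29 and 4.23.

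The 2 HNF4 genes differed in where they were found. Hnf4a had 11.36, 11.43 and 9.44 in small intestine and 11.47, 11.46 and 11.71 in stomach, so WT1_3 and WT3 lay just below the stomach arrays and WT4 further below. The difference from stomach was -0.8 (95% interval -2.81 to 1.21) with all arrays and -0.15 (-2.32 to 2.01) without WT4. With E14.5 skin replicates 1 and 2 left out of the pooled spread as well, the SE of this difference fell from 1.04 to 0.216 (adjusted p = 0.548). Hnf4g had 9.57, 9.75 and 4.35, and 5.24, 4.58 and 5.03 in stomach, and was called higher than stomach by 2.94 (SE 0.809), or 4.71 (SE 0.235) without WT4. With all arrays it differed from the mean of the 4 tissues by 3.34 with this probe set and by 0.51 (adjusted p = 0.114, not called) with its second-brightest one. Isx, a homeobox gene of the intestine that limits vitamin A uptake, had 9.79, 9.56 and 5.26, against 4.9 to 6.2 in stomach.

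The guanylin pathway sets fluid secretion: Guca2a and Guca2b encode the peptides guanylin and uroguanylin, and Gucy2c their receptor, a guanylate cyclase. All 3 genes were called higher in small intestine than in each other tissue. Gucy2c had 13, 13.07 and 7.95 in WT1_3, WT3 and WT4 and no more than 5.04 in any array of another tissue, and its difference from the 4 tissues was 6.88 (SE 0.622, adjusted p = 3.72e-09), or 8.58 (SE 0.231) without WT4. Guca2b had 12.83, 13.21 and 8.04, and stomach had 4.84 and 4.89 in WT1 and WT2 and 7.38 in WT4. Guca2a had 9.29, 9.62 and 4.99, and 4.38 to 4.76 in stomach, with all 3 stomach arrays below small intestine WT4.

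All 5 goblet cell and mucin genes were called higher than in the mean of the 4 tissues, and 4 of them higher than in stomach. Muc2, the gel-forming mucin of the intestine, had 10.15, 10.8 and 5.67, and 4 to 5.19 in stomach, a difference from the 4 tissues of 4.43 (SE 0.595, adjusted p = 1.2e-06) and 6.03 (SE 0.245) without WT4. Muc13, a mucin anchored in the apical membrane, had 12.71, 12.86 and 7.78. Tff3, the trefoil peptide released with mucin, had 13.09, 13.24 and 8.51, and 7.16 to 7.79 in stomach. Fcgbp, a protein of the mucus gel, had 12.18, 12.61 and 10.09, and 8.2 to 9.25 in stomach. In these 4 genes WT4 stood above stomach and below the other small intestine arrays.

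Agr2, which folds mucins in the endoplasmic reticulum, had the opposite order. It had 10.27 and 10.66 in WT1_3 and WT3, 11.67 in WT4, and 11.68, 12.04 and 12.04 in stomach. It was called lower in small intestine than in stomach, by -1.05 (SE 0.271, adjusted p = 0.00181) with all arrays and -1.45 (SE 0.233, adjusted p = 1.22e-05) without WT4. Against E18.5 skin, at 4.56 to 4.78, it was called higher by 6.17 (SE 0.271), or 5.77 (SE 0.233) without WT4. A second probe set of Agr2 gave a difference of -0.14 (adjusted p = 0.528) from the mean of the 4 tissues, where the brightest gave 3.4.

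The 4 genes of the surface and of adhesion were called higher in small intestine in every comparison with another tissue. Cdh17, an adhesion cadherin of the lateral membrane, had 12.18, 12.15 and 7.44, and 6.18, 5.07 and 7.36 in stomach. Gpa33, a junctional surface antigen, had 9.54, 9.57 and 6.8, and 5.97 to 6.11 in stomach. Tm4sf5, a membrane protein with 4 spans, had 11.9, 11.74 and 9.77, and 8.63 to 9.04 in stomach. Lgals4, a galectin that binds glycans of the brush border, had 12.56, 12.56 and 12.31, so WT4 did not stand apart, with 10.5 to 10.77 in stomach and 5.59 to 6.24 in E18.5 skin. Its difference from the 4 tissues was 5.09 (SE 0.185, adjusted p = 3.54e-15), and 5.17 without WT4.

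Set beside the mean of WT1_3 and WT3, the array WT4 had lower levels of most of the 39 genes. In WT4 35 of them were at least 2-fold lower and 20 at least 16-fold lower, where 6.74% and 0.791% of all genes were. The median difference was -4.02, against 0 over all genes. By role the medians were -3.67 for brush border, -3.9 for transport, -2.75 for lipid, -4.86 for regulators, -4.98 for guanylin signalling, -4.65 for goblet and mucin and -2.4 for surface and adhesion genes. The largest drops were those of Mep1a (-9.66), Cdx1 (-7.09) and Hnf4g (-5.31). The 4 genes that were not 2-fold lower were Myo1a (-0.99), Lgals4 (-0.26), Treh (-0.1) and Agr2 (1.2), and only Agr2 was higher. WT4 is 1 array, so these differences have no test. Its hepatocyte list summed to 29900 units, against 11100 and 13200 in WT1_3 and WT3, and its stratified list to 30200, against 185 and 459. In the hepatocyte sum Apoa1, also on the enterocyte list, had levels of 12.9, 12.94 and 10.71 in WT1_3, WT3 and WT4. Every other measured gene of that list was higher in WT4, such as Alb (4.69, 9.24 and 12.06) and Fga (6.34, 6.44 and 12.73). What part these lists had in the lower levels of the 39 genes was not tested.

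**Figure D3:**
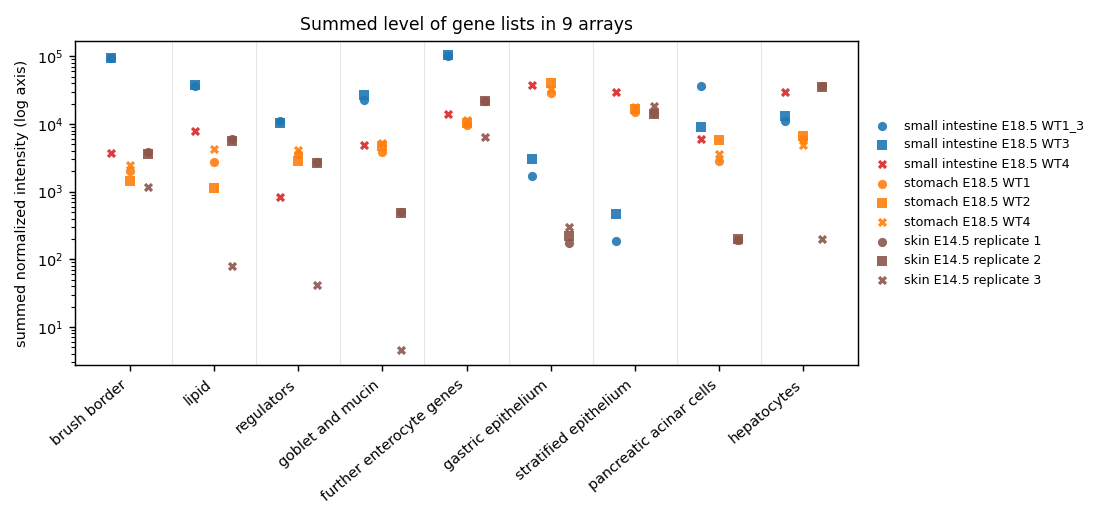
Summed normalized intensity of gene lists (log axis) in the small intestine, stomach and E14.5 skin arrays, 1 point per array. The red cross is small intestine WT4, at 3730 units for the brush border genes where WT1_3 and WT3 have 93400 and 93900, and at 37700 for the gastric list. E14.5 skin replicates 1 and 2 lie far above replicate 3 for the lipid and regulator genes and the hepatocyte list.

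Other genes of the same cell types, from lists drawn up with earlier results of these data known, were counted in small intestine against E18.5 skin. Of 41 further enterocyte genes 30 were called higher and none lower with all arrays, where 10.2% of all genes were called higher and 8.99% lower. Without WT4 31 were called higher and none lower, where 11.4% and 10.8% of all genes were. The largest were Apoa1 (7.88, SE 1.21), an apolipoprotein also made by hepatocytes, Prap1 (6.81, SE 1.27), Cps1 (6.52, SE 0.727), the first enzyme of the urea cycle, and Mogat2 (6.13, SE 0.671), which rebuilds fat from absorbed monoglycerides. Without WT4 these differences were 8.62, 8.12, 7.65 and 7.52. Of 20 further goblet and secretory genes 11 were called higher and 1 lower with all arrays and without WT4. They were led by Clca1 (6.22, SE 0.53) and Spink4 (5.48, SE 0.648), both secreted with mucus, then Clps (5.37, SE 0.432), the pancreatic colipase gene, and Tspan8 (5.31, SE 0.547). Without WT4 the largest were Clca1 (7.28), Zg16 (7.23), a lectin of the mucus, and Spink4 (6.54), while Tspan8 was at 5.04 and Clps at 4.79. Zg16 had 11.25, 12.36 and 4.35 in WT1_3, WT3 and WT4. Of 17 further regulators 9 were called higher and 2 lower, or 8 and 2 without WT4, led by the nuclear receptor gene Nr1i2 (4.74, SE 0.209), Foxa1 (4.65, SE 0.498), Gata6 (4.57, SE 0.302) and the bile acid receptor gene Nr1h4 (4.45, SE 0.796). Without WT4 Nr1h4 came first (6.04), then Onecut2 (5.28), Nr1i2 (5.09) and Gata6 (4.93), and Foxa1 was at 3.61. Nr1h4 had 10.35, 10 and 5.4 in WT1_3, WT3 and WT4, and Foxa1 7.88, 7.82 and 10.96. Apoa1 is also on the hepatocyte list, Clps on the pancreatic and Foxa1 on the urothelial list. The enteroendocrine list, hormone cells of the same epithelium, had 10 of 13 called higher and 11 without WT4, led by the hormone genes Gip (6.53, SE 0.761), Sct (5.83, SE 1.19) and Cck (5.31, SE 0.974), and Chgb (5.25, SE 0.558), or 8.19, 8.48, 7.45 and 6.13 without WT4. The median difference was 3.32 for the enterocyte, 2.02 for the goblet, 1.67 for the regulator and 2.36 for the enteroendocrine list, against -0.04 over all genes. Without WT4 these medians were 4.08, 1.74, 0.92 and 2.34, against -0.04. All 11 pancreatic acinar genes and 6 of 12 hepatocyte genes were also called higher in small intestine than in skin, and 11 and 4 without WT4. Against stomach 5 of the 20 goblet and secretory genes were called higher and 5 lower, where 20% and 25.6% of all genes were. Without WT4 7 were higher and 7 lower, where 21% and 27.2% were, and the median difference was -0.01. There the enterocyte list had 25 higher and 3 lower, or 28 and 2 without WT4. The regulators had 8 and 4, or 11 and 5 without WT4.

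Stomach carried part of the intestinal set. With all arrays 11 of the 39 genes were called higher in stomach than in esophagus and none lower, where 4.25% of all genes were called higher and 2.8% lower. They were Alpi, Vil1, Myo1a, Fabp1, Fabp2, Hnf4a, Agr2, Fcgbp, Lgals4, Gpa33 and Tm4sf5. When WT4, which is in neither group but adds to the pooled spread, was left out of the fit, 20 were called higher, where 4.89% of all genes were called higher and 2.96% lower. Those added were Lct, Mep1b, Anpep, Slc2a2, Mttp, Cdx2, Isx, Muc13 and Tff3. With E14.5 skin replicates 1 and 2 left out as well, 24 were called higher, where 4.97% of all genes were, with Cdhr2, Apoa4, Apob and Apoc3 added. The differences themselves are the same in these 3 fits and only the pooled spread changes.

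The largest of these differences were large against the spread in all fits. Agr2 had 11.68, 12.04 and 12.04 in stomach WT1, WT2 and WT4 and 5.39, 6.5 and 6.17 in esophagus, a difference of 5.9 (SE 0.271, adjusted p = 4.45e-12). Hnf4a had 11.46 to 11.71 in stomach and 5.38 to 6.01 in esophagus, a difference of 5.79 (SE 0.965, adjusted p = 0.000241). Tm4sf5 differed by 4.63 (SE 0.392) and Lgals4 by 4.18 (SE 0.234), with no overlap of the arrays. Every stomach array lay above every esophagus array in 24 of the 39 genes and in 18.6% of all genes.

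Myo1a (3.38, SE 0.231) and Vil1 (3.57, SE 0.753) were the brush border genes with the largest differences, with stomach arrays at 7.69 to 7.98 and 8.72 to 9.43. Fcgbp had 8.2, 8.3 and 9.25 in stomach and 4.5, 5.7 and 5.33 in esophagus, a difference of 3.41 (SE 0.507). Gpa33 had 6.05, 6.11 and 5.97 against 4, 4.37 and 4.54, a difference of 1.74 (SE 0.463, adjusted p = 0.0132) that was not called without esophagus WT1. Alpi had 4.68, 6.65 and 4.21 in esophagus, a difference of 2.84 (SE 0.771, adjusted p = 0.0152), and was not called without esophagus WT1, esophagus WT4 or stomach WT4.

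The lipid genes varied from array to array in both tissues. In esophagus WT2 Fabp1 had 8.14, Fabp2 8.18, Apoa4 7.95 and Apoc3 6.66, while in esophagus WT1 and WT4 they had 6.25 and 6.48, 4.41 and 5.22, 4.04 and 4, and 4.99 and 4.56. In stomach WT2 Fabp2 (7.8), Apoa4 (6.91) and Apoc3 (5.84) were lower than in WT1 and WT4, and Cdx2 was lower by more than 4 units. Fabp1 differed between the tissues by 2.5 (SE 0.462, adjusted p = 0.000701) and Fabp2 by 3.3 (SE 0.755, adjusted p = 0.00449). Apoa4 differed by 3.49 (SE 1.34, adjusted p = 0.0899) and Cdx2 by 3.32 (SE 1.22, adjusted p = 0.0767), and neither was called with all arrays. The hepatocyte list summed to 4820 to 6580 units in stomach and 1470 to 2300 in esophagus, and the pancreatic list to 2830 to 5850 and 95.1 to 120. Single genes stood out in both sums. Clps, on the pancreatic list, had 11.16, 12.46 and 11.74 in stomach and 4 to 4.3 in esophagus, while the acinar enzyme gene Prss2 had 4 to 4.14 in stomach, and 2 of the 11 pancreatic genes were called. Ttr, on the hepatocyte list, had 11.7 to 12.01 in stomach and 7.97 to 9 in esophagus, while Alb had 6.92 to 8.86 and 8.46 to 9.1, and none of the 12 hepatocyte genes was called. Their part in these differences was not tested.

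**Figure D4:**
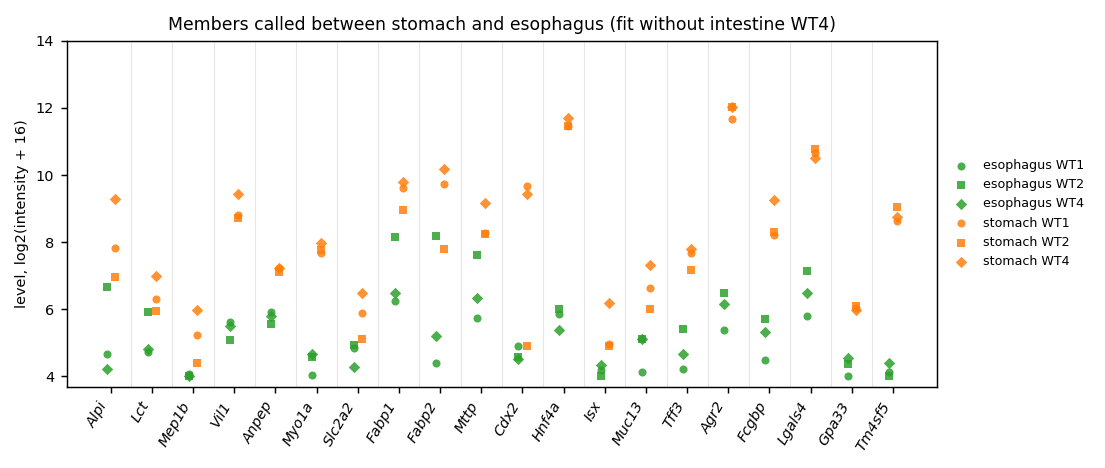
Levels, as log2(intensity + 16), of the 20 genes called between stomach (orange) and esophagus (green) at E18.5 in the fit without small intestine WT4, 1 point per array with the shape giving the array number. Stomach lies above esophagus in most genes, and the arrays overlap where esophagus WT2 (green square) is high or stomach WT2 (orange square) is low, as for Cdx2.

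Other genes were at or near the floor in both stomach and esophagus. Gucy2c had 4.07 to 4.91 in stomach and 4.62 to 4.81 in esophagus, a difference of -0.11 (adjusted p = 0.96). Cdx1 differed by 0.05 (adjusted p = 0.985), Hnf4g by 0.19 (adjusted p = 0.927) and Muc2 by 0.54 (adjusted p = 0.724). Among the further lists the counts were 2 higher and 2 lower of 41 enterocyte genes, 9 and 1 of 20 goblet and secretory genes, 6 and none of 17 regulators and 7 and none of 13 enteroendocrine genes, where 4.25% of all genes were called higher and 2.8% lower. With all arrays the enterocyte count is near those shares. Without WT4 the counts were 7 and 2, 9 and 1, 7 and none, and 7 and 1, where 4.89% and 2.96% of all genes were called. The goblet and secretory genes were led by Clps (7.69, SE 0.432), Foxa3 (5.24, SE 0.676), Clca1 (4.27, SE 0.53) and Fut2 (3.77, SE 0.444).

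In dorsal skin 10 of the 39 genes were called between E14.5 and E18.5 with all arrays, 9 lower at E18.5 and 1 higher, where 24% of all genes were called lower and 18.6% higher. The lower count is near its share over all genes and the higher count is below its share. When WT4 was left out of the fit, 14 were called lower and 1 higher, where 24.4% of all genes were called lower and 18.9% higher. Most of the lower calls came from E14.5 replicates 1 and 2, the pair with a shared identifier. In these Apoa4 had 12.13 and 12.01, where replicate 3 had 4.65 and E18.5 skin 4 to 4.2. Hnf4a had 10.91 and 10.83, and 4.73 in replicate 3. Cdhr2 had 11.11 and 10.92, and 4.51 in replicate 3. Vil1, Apob, Mttp and Tff3 were split in the same way between replicates 1 and 2 on the one hand and replicate 3 on the other, as were Cdx2 (9.65, 9.77 and 4.96), Guca2b (9.55, 9.8 and 4.48), Muc13 and Apoc3, which were called only when WT4 was left out.

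Not all of the intestinal genes were raised in those 2 arrays. Cdx1 had 4.61 and 4.39, Gucy2c 4.28 and 4.69, Muc2 4.04 and 4.58, Mep1a 4.47 and 4.42, Fabp1 4.3 and 4 and Lct 5.04 and 4.9, where the floor is 4. Alb, the albumin gene, had 11.43, 11.31 and 4.67 in replicates 1, 2 and 3, and Afp, the fetal serum protein gene, 13.39, 13.24 and 6.5. Of the 12 hepatocyte genes 11 were called lower at E18.5 than at E14.5 with all arrays. Their part in the differences was not tested.

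Without WT4 and without replicates 1 and 2 of E14.5 skin, which leaves 1 array at E14.5 assumed to vary like the other groups, 3 genes were called lower at E18.5 and 2 higher. The lower ones were Dpp4 (-2.09), Slc15a1 (-2.38) and Slc5a1 (-1.26), and the higher ones Slc6a19 (2.29) and Cdhr5 (1.13). Of all genes 18.2% were called higher and 24.1% lower in that fit. Both counts of called genes lie below those shares. Dpp4 had 9.95 to 10.18 in all 3 arrays at E14.5, 7.48 to 7.86 at E16.5 and 7.34 to 8.18 at E18.5, a difference of -2.23 (SE 0.488, adjusted p = 0.000426) with all arrays. Slc15a1 had 8.1 to 8.61 at E14.5, 5.42 to 5.78 at E16.5 and 6.02 to 6.48 at E18.5, a difference of -2.12 (SE 0.288, adjusted p = 1.51e-06). Slc6a19 had 4.2 to 4.93 at E14.5, 7.45 to 7.7 at E16.5 and 6.06 to 7.06 at E18.5, a difference of 2.18 (SE 0.597, adjusted p = 0.00311). Slc5a1 had 6.47 to 6.83 at E14.5, 5.64 to 5.91 at E16.5 and 5.21 to 5.99 at E18.5. In these 4 genes the arrays of E14.5 do not overlap with those of the later ages. A gap in the direction of Slc6a19 is common here. Every E18.5 array lay above every E14.5 array in 31.7% of all genes and in 6 of the 39. The share in the other direction, that of Dpp4, Slc15a1 and Slc5a1, was not counted. Cdhr5 had 5.7, 5.34 and 5.08 in replicates 1, 2 and 3 of E14.5, 4.9 to 5.31 at E16.5 and 5.83 to 6.62 at E18.5. It was not called with all arrays, nor when only WT4 was left out. The E14.5 arrays belong to the set with the higher Gapdh ratio and the later ages to the other, so set and age cannot be told apart.

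**Figure D5:**
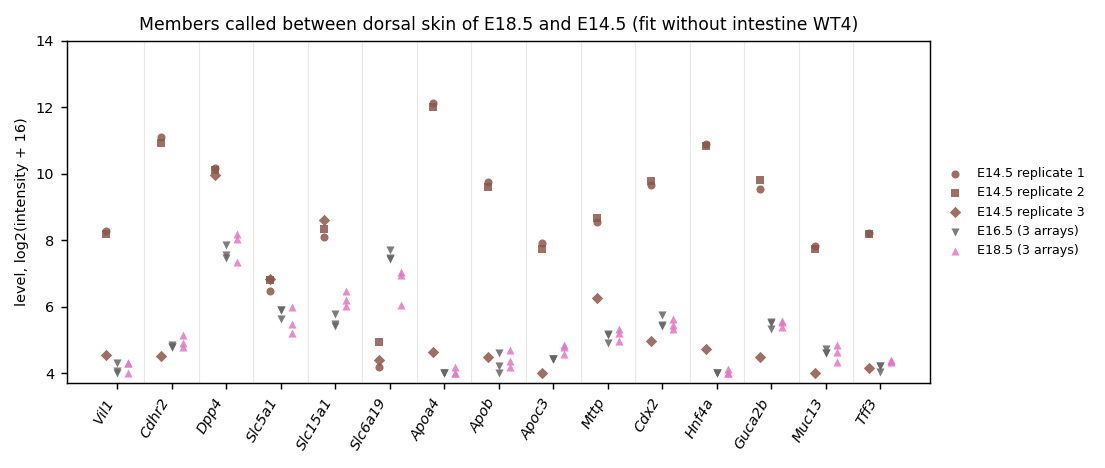
Levels, as log2(intensity + 16), of the 15 genes called between E18.5 and E14.5 dorsal skin in the fit without small intestine WT4, 1 point per array. In 11 genes E14.5 replicates 1 and 2 (brown circle and square) are high and replicate 3 (brown diamond) is near the later ages or between, and in Dpp4, Slc5a1, Slc15a1 and Slc6a19 the 3 E14.5 arrays lie together.

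Bladder held little of the intestinal set apart from Dpp4. In the Get1 +/- bladders of E18.5 Dpp4 had 8.52 to 9.37, near small intestine WT1_3 and WT3 (9.36 and 9.06). Other genes above the floor there but below those small intestine arrays included Anpep (6.06 to 7.72), Mttp (6.33 to 6.86) and Hnf4a (5.78 to 6.44). No gene of the 39 was called between E16.5 and E14.5 in limma with all arrays, where 0.341% of all genes were called, and 1 of the 39 had an unadjusted p under 0.05. That gene was Agr2, with 5.67 and 5.21 at E14.5, 6.54, 6.21 and 6.6 at E16.5 and 7.06 to 7.33 in the Get1 +/- bladders of E18.5, a difference between E16.5 and E14.5 of 1.01 (SE 0.303, adjusted p = 0.163). It was called when WT4 was left out of the fit (SE 0.233, adjusted p = 0.039), where 0.643% of all genes were called, and not when E14.5 skin replicates 1 and 2 were left out as well. Tff3 had 4.02 and 4 at E14.5, 4 to 5.17 at E16.5 and 5.59 to 6.06 at E18.5, and Lct 4.14 and 4.15, 4.42 to 4.88 and 6.35 to 6.67. At E18.5 age and genotype change together in bladder, so no age comparison with E18.5 was made there.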

How the data were processed

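RNA of 26 mouse tissue arrays was read from the deposited table, with each group taken from the sample labels. Its values are linear intensity per probe set, which the authors made from the scans before they were deposited. For this, per the submitters' processing notes, they used Affymetrix Expression Console 1.1.1 with the PLIER 2.0 algorithm. How arrays were normalized to each other is not stated in the notes or labels. The 27 arrays of another type were not used here. The 39 genes and all lists were chosen with earlier results of these data known. Of 45101 probe sets, 34958 have 1 gene symbol in the platform annotation, 932 several and 9211 none, and the brightest per gene was kept. Log2(intensity + 16) was quantile-normalized and fitted with limma 3.58.1 in R 4.3.3 (lmFit, eBayes) over all 26 arrays in 9 groups, which share 1 estimate of the spread. Differences were called at a Benjamini-Hochberg adjusted p under 0.05 and at least 2-fold. Tested on simulated data for small intestine against stomach over 18194 genes, the fit called 38% of genes changed 2-fold, 94% at 3-fold, 100% at 4-fold and 98% at 8-fold. All 39 genes may be named, and of each other list up to 4 called genes with the largest difference. Values of each array are given for genes with the largest intestinal difference and those called without small intestine in the comparison. Alternatives were the normalization, the pseudocount, a filter on dim genes, other probe sets, trended eBayes, only the groups compared, no fold limit and each array left out. The fits without WT4, without WT4 and 2 E14.5 skin arrays, and with those 2 averaged were chosen after seeing the data. The WT numbers of stomach and esophagus were checked for pairing. Deviations of same-numbered arrays correlated at 0.064, 0.088 and 0.13, and those of differently numbered arrays at -0.107 to 0.04. Each array thus matched best with its own number, though all values are small. The main fit does not use the numbers as pairs, and a fit with them as a replicate block is given below.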

Additional observations from a re-analysis of the deposited data

How the results depend on the processing

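Of the counts of called genes under another setting, 253 were within 1.5 times the main count, 10 higher and 19 lower. Second-brightest probe sets could be tested for 14 of the 39 genes and 9012 of all, and called 11 of the 14 in small intestine against the 4 tissues, 12 against stomach, 10 against esophagus, 12 against bladder, 13 against skin, 2 in stomach against esophagus and 5 between the skin ages. Over all genes they gave 3127, 4078, 4376, 4000, 1365, 395 and 4021 in that order, and 37 between the bladder ages. Against the 4 tissues 13 of the 14 were called with the brightest probe set, and the 2 lost were Hnf4g (0.51, from 3.34) and Agr2, which reversed to -0.14. Fitting only the groups compared gave 2324 genes of all in small intestine against skin (3500 in the main fit) and 0 between the bladder ages with limma, with 2369 at an unadjusted p under 0.05, against 62 called and 1725 in the main fit. With no fold limit, 12455 genes were called in small intestine against the 4 tissues, 6749 against skin, 2612 in stomach against esophagus and 11690 between the skin ages. Leaving out each array gave 33 (without E16.5 replicate 3) to 100 (without E14.5 replicate 1) genes between the bladder ages. The fit without WT4 gave 20 of the 39 in stomach against esophagus and 1 between the bladder ages, with 117 of all genes there. Without WT4 and the 2 E14.5 skin arrays the counts were 24, 5 between the skin ages, and 121 of all genes between the bladder ages. With the stomach and esophagus numbers as a replicate block 11 of the 39 and 1086 of all genes were called, against 11 and 1283, and each array correlated best with its own number. Except where a smaller number of genes or arrays is named, the cause was not tested. Signal near the background limits what Treh, Espn and other dim genes can show.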
